A study of Rattus norvegicus with 6 samples.

Results

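The genes described here were 7 chemokine ligands, Ccl2, Ccl3, Ccl4, Ccl5, Ccl7, Ccl20 and Cx3cl1, and 2 receptors, Ccr1 and Ccr2. They were taken as the probes whose RefSeq accession maps to these symbols. All 9 had a single probe, printed at 1 spot, among the 24684 probes of the array. RNA of rat pancreas was measured on Agilent arrays in a control group and after acute pancreatitis (AP). The gland was inflamed by injecting sodium taurocholate, a bile salt, backwards into the duct (4%, 1 mL/kg). All rats were males of 6 weeks, the tissue was taken 9 h after the injection, and no genotype, strain or sham operation of the controls was given in the labels. Each group had 3 deposited scans, but scans 2 and 3 of either group came from the same array, so that n = 2 arrays per group throughout. Directions follow the deposited labels, and AP arrays are those labelled AP. Genes of inflammation such as Il6, Il1b and Ccl2 were lower on them than on the arrays labelled control. Whether the labels match the tissue was not tested, and exchanged labels would turn every direction given here.

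Chemokines are small secreted proteins that draw white blood cells along a gradient by binding receptors coupled to G proteins. CCL2 and CCL7 act through CCR2 on monocytes, and CCL7 also binds CCR1. CCL3 and CCL5 bind CCR1, and CCL4 is a close relative of CCL3. CCL20 binds CCR6 on lymphocytes and dendritic cells, and CX3CL1, which is tethered to the cell membrane until proteases release it, binds CX3CR1. In an injured pancreas, acinar, stromal and immune cells are known sources of CCL2.

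Of the 8 genes that could be tested, 4 were lower on the arrays labelled AP (Ccl2, Ccl7, Ccl3 and Ccr1), 1 was higher (Ccl20) and 3 did not pass (Ccl4, Ccl5 and Cx3cl1). The falls were between 13.6-fold and 62.6-fold, and the rise of Ccl20 was 3.02-fold. Among all 13220 probes tested, 28.2% were lower and 26.9% higher (55.1% in either direction), so that calls were common on these arrays. Without scaling between arrays the balance over all probes turned to 7796 lower and 768 higher, against 3725 and 3557 with it. The median log2 fold change of the 8 genes was -2.15, and that of all probes tested was 0.08. The 8 tested genes also had no overlap between the arrays of the groups, as did 79.5% of 13149 probes with a value on every array.

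Signals are given in log2 after subtracting each array's own 75th percentile, so that 0 is the level of that percentile. The control arrays were brighter, with a 75th percentile of 140 to 147 against 70.2 to 77.7 on AP arrays, and the scaling removed a log2 difference of -0.96 (AP minus control). A rise of less than 0.96 therefore has the opposite sign without scaling. The faintest signal well above background was -3.78 to -3.67 on this scale on control scans and -2.52 to -2.47 on AP scans. From 13039 to 15388 probes were well above background on control scans, and 10905 to 11367 on AP scans. Being at background on AP arrays alone is therefore no evidence of a fall. Nfkb2, with a mean of -1.73 in both groups, was above background on 3 control scans and no AP scan. Control arrays were in slots 1 and 2 of the slide and AP arrays in slots 3 and 4, so the place on the slide and the group cannot be told apart. Nothing in the labels ties a sample to a shared litter or batch, and in bulk tissue fewer cells of a type and less RNA per cell cannot be told apart. Changes were tested with limma, and an adjusted p below 0.05 counted as a call; an exact permutation test of 2 arrays against 2 cannot go below p = 0.333 (two-sided).

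**Figure D1:**
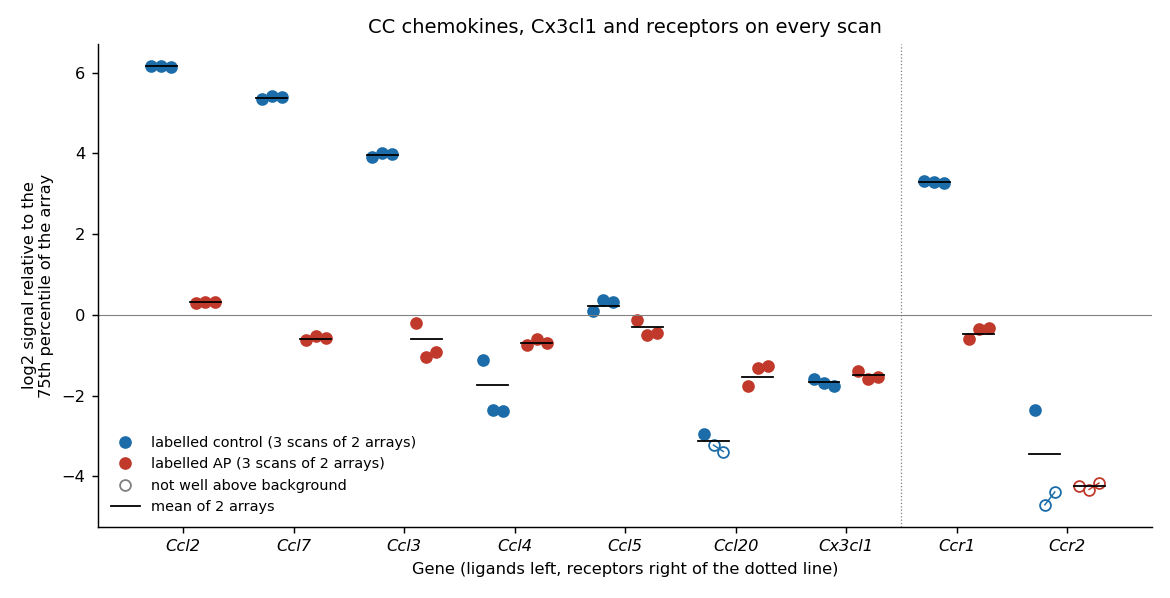
Log2 signal of each gene (vertical axis, 75th percentile of its array at 0) on the 3 scans labelled control (blue) and the 3 labelled AP (red); open points were not well above background, and black bars are means of 2 arrays. Ccl2, Ccl7, Ccl3 and Ccr1 lie above 3 on every control scan and below 1 on every AP scan.

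The start regions of Ccl7 and Ccl20, the genes with the deepest fall and the only called rise of the group, are shown because the changes were opposite. Both are the 250 bases before the transcript start in RefSeq's annotation of build GRCr8, on the plus strand, at chr10:67513845-67514094 for Ccl7 and chr9:91836909-91837158 for Ccl20. Capitals mark matches to the motifs searched.
Ccl7: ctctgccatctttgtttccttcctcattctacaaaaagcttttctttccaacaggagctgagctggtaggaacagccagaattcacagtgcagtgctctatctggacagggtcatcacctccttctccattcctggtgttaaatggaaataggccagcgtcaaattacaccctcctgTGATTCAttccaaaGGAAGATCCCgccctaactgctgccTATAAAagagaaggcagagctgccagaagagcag
Ccl20: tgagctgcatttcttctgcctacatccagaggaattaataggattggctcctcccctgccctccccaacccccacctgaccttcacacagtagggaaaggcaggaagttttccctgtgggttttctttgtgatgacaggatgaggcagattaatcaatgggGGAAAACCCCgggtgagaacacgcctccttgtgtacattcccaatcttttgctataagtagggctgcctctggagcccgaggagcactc

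The search on both strands used the NF-kappaB consensus, the AP-1 motif TGANTCA, the GAS motif TTCNNNGAA and TATAAA. The window of Ccl7 held an AP-1 match (TGATTCA, 73 to 67 bases before the start), an NF-kappaB match (GGAAGATCCC, 59 to 50 bases before it) and TATAAA (34 to 29 bases before it). That of Ccl20 held an NF-kappaB match (GGAAAACCCC, 89 to 80 bases before the start). None of these matches overlapped. Of 33469 windows of the same length, 6.33% held the NF-kappaB motif, 6.34% the AP-1 motif, 7.67% the GAS motif and 12.9% TATAAA. The table held 5 of the 9 genes; Cx3cl1 had TATAAA 78 to 73 bases before its start, and the windows of Ccr1 and Ccr2 held no match. Ccl2, Ccl3, Ccl4 and Ccl5 had no entry.

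Ccl2 encodes the principal chemokine for monocytes. Its signal before scaling was 10524, 10137 and 10350 on the controls, in scan order, and 94.7, 87.5 and 93.1 on the AP scans. On the scaled log2 scale these were 6.16, 6.17 and 6.15 against 0.29, 0.32 and 0.33. All control scans were high, all AP scans low, and the groups were far apart compared with the spread within each. The array means were 6.16 ± 0.0013 and 0.31 ± 0.03 (SD, n = 2 per group), a log2 fold change of -5.85 ± 0.09 (SE, adjusted p = 0.000602), or 57.8-fold lower. Over all 13220 probes it held place 23 from the deepest fall.

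Ccl7, a chemokine for monocytes and eosinophils, changed nearly as Ccl2 did. Control scans gave a log2 signal of 5.35, 5.42 and 5.39, and AP scans -0.63, -0.52 and -0.57, well above background on all 6. The groups were again far apart. It was 62.6-fold lower (-5.97 ± 0.10, SE, n = 2 per group, limma adjusted p = 0.000602), place 21 from the deepest fall. A ratio of 2 probes on the same array does not depend on the scaling. The log2 ratio of Ccl7 to Ccl2 was -0.81 and -0.75 on the control arrays and -0.91 and -0.88 on the AP arrays, a change of -0.11, or 1.08-fold. RefSeq's annotation places Ccl7 directly after Ccl2, followed by Ccl11, the eosinophil chemokine eotaxin. Ccl11 was above background on the 3 control scans and on none of the AP scans, and was at least 1.31-fold lower. Its log2 fold change was 0.09 (adjusted p = 0.827) with normexp (a background correction) and the 75th percentile, and -0.40 (0.00494) under normexp with quantile normalization.

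For a fold written "at least", the dim group was given, on each scan, the faintest signal that still counted as well above background anywhere on the array (or its own, if brighter). Such folds are approximate bounds for the signal as scaled here, and they need not hold under normexp.

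Ccl3 and Ccl4 encode the macrophage inflammatory proteins 1 alpha and 1 beta and lie next to each other in the annotation. For Ccl3 the control scans read 3.92, 4.02 and 3.99 (log2), and the AP scans -0.21, -1.05 and -0.91. All control scans were high, and the AP arrays differed among themselves more than the control arrays did. The fall was 23.5-fold (-4.56 ± 0.30, SE, n = 2 per group, adjusted p = 0.00191). Ccl4 ran the other way without passing. Its control scans read -1.12, -2.36 and -2.38, against -0.75, -0.59 and -0.70 for AP. Control 1 lay close to the AP scans, while the other control array lay well below; the groups did not overlap. The log2 fold change was 1.04 ± 0.47 (SE, n = 2 per group, limma adjusted p = 0.139). Without control replicate 1 it was 1.67 (adjusted p = 0.0211), and without scaling 0.09 (0.882).

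The ratio of the neighbours Ccl4 and Ccl3, free of any scaling, was -5.04 and -6.38 on the control arrays and -0.55 and 0.33 on the AP arrays (log2). It changed by 5.60, or 48.5-fold (exact permutation p = 0.333, the smallest these arrays allow). Both AP arrays lay above both control arrays in this ratio. In the same run of genes, in the order Ccl5, Ccl9, Ccl6, Ccl3, Ccl4, the first stood at -0.53, the second at -0.40 (adjusted p = 0.378) and the third, at background on all AP scans, was at least 3.46-fold lower. Ccl6 encodes another chemokine for macrophages; its fitted change was -0.07 (adjusted p = 0.873) under normexp with the 75th percentile and -0.48 (0.0108) under normexp with quantile normalization.

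Ccl5, also called Rantes, attracts T cells and monocytes. Its log2 signal was 0.10, 0.38 and 0.31 in controls, and -0.12, -0.51 and -0.46 in AP. Every control scan lay above every AP scan, by a small margin. The log2 fold change was -0.53 ± 0.19 (SE, n = 2 per group, limma adjusted p = 0.0819), which did not pass. Without scaling it was -1.49 (adjusted p = 0.00524).

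Ccl20, the ligand of CCR6, was dim. Control scans read -2.95, -3.23 and -3.39, of which only the first was well above background. AP scans read -1.77, -1.31 and -1.28, all above it. The AP scans were higher than every control scan. The rise was 3.02-fold (1.59 ± 0.24, SE, n = 2 per group, adjusted p = 0.0101). The call was lost without control replicate 2 (1.41, adjusted p = 0.0573), without scaling (0.64, 0.0655) and under normexp with the 75th percentile (0.67, 0.0940). Genes at background on every scan of both groups mostly read higher on AP arrays too after scaling. The mean of Cd163 went from -5.47 on control to -4.26 on AP arrays, and that of Gcg from -5.49 to -4.28. Grk2 moved less, from -4.13 to -3.98, and of such listed genes only Cdh5 went down, from -3.98 to -4.07. How much of the rise of Ccl20 is shared with such genes was not tested. The receptor gene Ccr6 was at background on all control scans and at least 19.5-fold higher on AP arrays. Its fitted log2 fold change was 4.33. Under normexp it was smaller, 1.43 with the 75th percentile (limma adjusted p = 0.000109) and 1.28 with quantile normalization (0.000183).

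Cx3cl1, which encodes fractalkine, did not pass. Its control scans read -1.60, -1.68 and -1.77 and its AP scans -1.40, -1.59 and -1.54. The lowest AP scan lay just above the highest control scan. The log2 fold change was 0.18 ± 0.12 (SE, n = 2 per group, limma adjusted p = 0.256), and -0.77 without scaling (adjusted p = 0.0143). Its receptor gene Cx3cr1 was not well above background on any of the 6 scans.

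Ccr1, a receptor of monocytes, macrophages and neutrophils for CCL3, CCL5 and CCL7, fell as well. Its control scans read 3.31, 3.29 and 3.27, and its AP scans -0.60, -0.35 and -0.32. All control scans were high and all AP scans low. It was 13.6-fold lower (-3.76 ± 0.13, SE, n = 2 per group, adjusted p = 0.000736), place 182 from the deepest fall. Its ratio to Ccl2, whose product is not among these ligands, changed by 2.09 (log2), so Ccl2 fell further than Ccr1. The ratio of Ccr1 to Ccl3 changed by 0.79 with AP arrays at -0.39 and 0.64. Against Ccl5 it changed by -3.24. Each of these ratios has the smallest exact permutation p, 0.333.

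Ccr2, the main receptor of CCL2 on inflammatory monocytes, could not be tested. Its log2 signal was -2.36 on the first control array and -4.71 and -4.39 on the second, and AP scans read -4.24, -4.33 and -4.17. Only the first control scan was well above background, and a difference between the groups was not detectable at this signal.

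**Figure D2:**
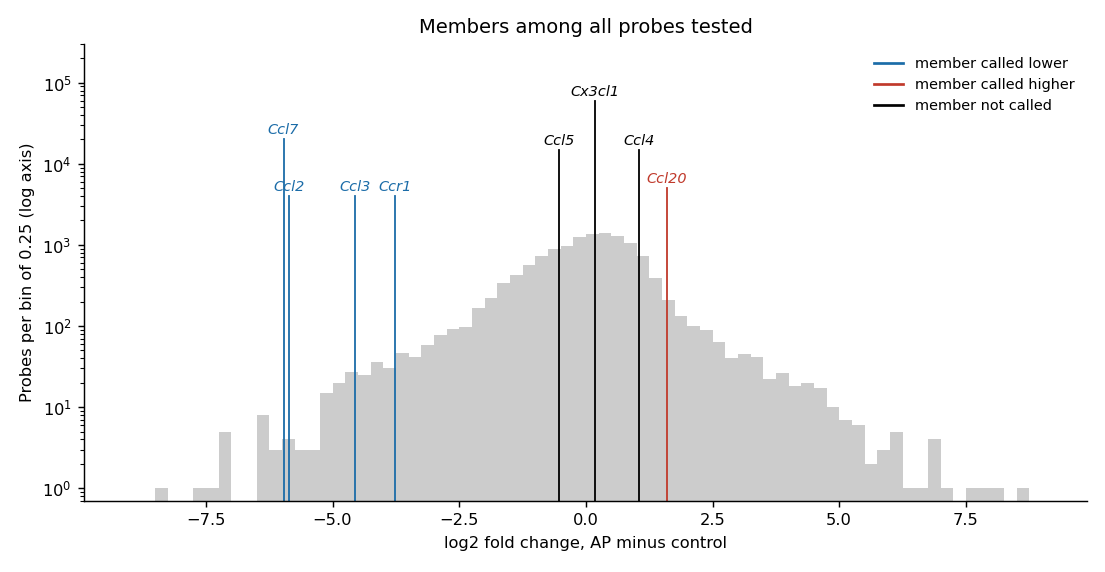
Histogram of the log2 fold change (AP minus control) of all 13220 probes tested, in bins of 0.25 with a log vertical axis; vertical lines mark the 8 tested genes, with line heights chosen for legibility. Ccl7 and Ccl2 lie at -5.97 and -5.85 in the far lower tail, and Cx3cl1 at 0.18 lies in the bulk.

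The difference between 2 scans of the same array gave the error of the scan itself. Over the 8 tested genes it was at most 0.16 in log2, far under the falls of Ccl2, Ccl7, Ccl3 and Ccr1. It holds neither the spread between animals nor that between arrays.

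**Figure D3:**
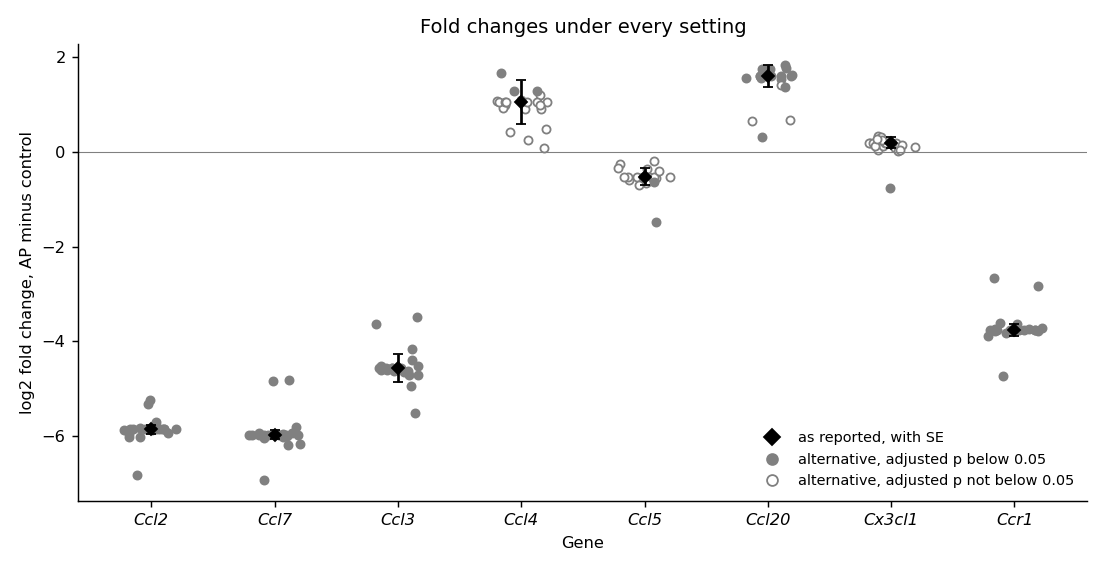
Log2 fold change (AP minus control) of the 8 tested genes as reported (black diamonds with SE) and under the alternatives (circles, filled where the adjusted p was below 0.05; horizontal scatter is arbitrary). Ccl2, Ccl7, Ccl3 and Ccr1 stay at or below -2.67 in all of them, while Cx3cl1 lies on both sides of 0.

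The rest of the chemokine system gave both directions. Of the other CC chemokine ligands, 9 of 13 could be tested: 3 were lower, 2 were higher and 4 did not pass (median -0.27). The lower genes were Ccl6, Ccl11 and Ccl24, a second eotaxin that was at least 2.05-fold lower, with 0.05 (adjusted p = 0.912) under normexp with the 75th percentile and -0.33 (0.00994) with quantile normalization. The higher genes were Ccl21 and Ccl19, ligands of CCR7 that guide lymphocytes and dendritic cells into lymphoid tissue. Ccl21 rose 75.2-fold (adjusted p = 0.000602) and Ccl19 rose 18.3-fold (adjusted p = 0.000602). Of the other receptors, Ccr6 was higher, as given above with its ligand, and Ccr10, Ccrl2 and Ackr2 did not pass. Ccr7 itself was at background on all scans.

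Of the genes that induce chemokines, 8 of 15 could be tested; 5 were lower, 1 was higher and 2 did not pass (median -1.17). Il6, Csf1 and Il1a were at background on all AP scans. Il6 was at least 29.1-fold lower. Its fitted log2 change was -6.41, but -2.30 under normexp with the 75th percentile and -2.37 with quantile normalization. Csf1, the growth factor of macrophages, was at least 8.65-fold lower. Its fitted change was -3.37, but -1.07 and -1.23 under the same normexp settings. Il1a was at least 2.19-fold lower, with 0.04 (limma adjusted p = 0.917) under normexp with the 75th percentile and -0.31 (0.0129) with quantile normalization. Il1a also lost its call without control replicate 1 (-1.35, adjusted p = 0.0577) or 2 (-1.29, 0.0670). Il1b fell 15.8-fold and Nfkbia, the inhibitor of NF-kappaB, fell by 1.01 on the log2 scale (adjusted p = 0.00565). Tnf was called higher (0.49, adjusted p = 0.0231), with -0.47 (0.0401) without scaling and no call with any array left out (0.0665 to 0.0990) or with the replicate block (0.0691).

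Of the genes that carry the signal of chemokine receptors, 8 of 14 could be tested; 4 were higher, 2 were lower and 2 did not pass (median 0.56). Rac2, the Rac GTPase of blood cells, was 4.24-fold higher (adjusted p = 0.00137), while Rac1, its widely expressed relative, was 2.54-fold lower (adjusted p = 0.00202). Arrb2, an arrestin that ends receptor signalling, rose by 1.44 and Vav1, an exchange factor of blood cells, by 1.43 in log2, with 0.67 (adjusted p = 0.0884) for Vav1 under normexp with the 75th percentile. Grk6, a receptor kinase, was at 0.88 (adjusted p = 0.00532) at -0.07 without scaling (0.579) and at 0.81 with median scaling (0.0737), and the G protein subunit Gnai3 was at -0.83.

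Of the adhesion and shedding genes, 6 of 11 could be tested; 3 were higher, 2 were lower and 1 did not pass (median 0.09). The integrin subunit Itgal was 4.04-fold higher, and its ligand Icam2 rose by 1.32 in log2, with 0.36 (adjusted p = 0.0711) without scaling. Itgam, the integrin subunit of monocytes and neutrophils, was at least 1.55-fold lower, with 0.10 (0.823) under normexp with the 75th percentile and -0.38 (0.00641) with quantile normalization. Vcam1, an endothelial ligand of integrins, fell by 0.76 (adjusted p = 0.0066, and 0.0674 with median scaling). Itgb2, the partner chain of both integrins, was at 0.57 (adjusted p = 0.0249), at -0.38 without scaling (0.103) and at an adjusted p of 0.0693 with the replicate block. It also lost its call without control replicate 1 (0.102), control replicate 2 (0.0980) or AP replicate 1 (0.0748).

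**Figure D4:**
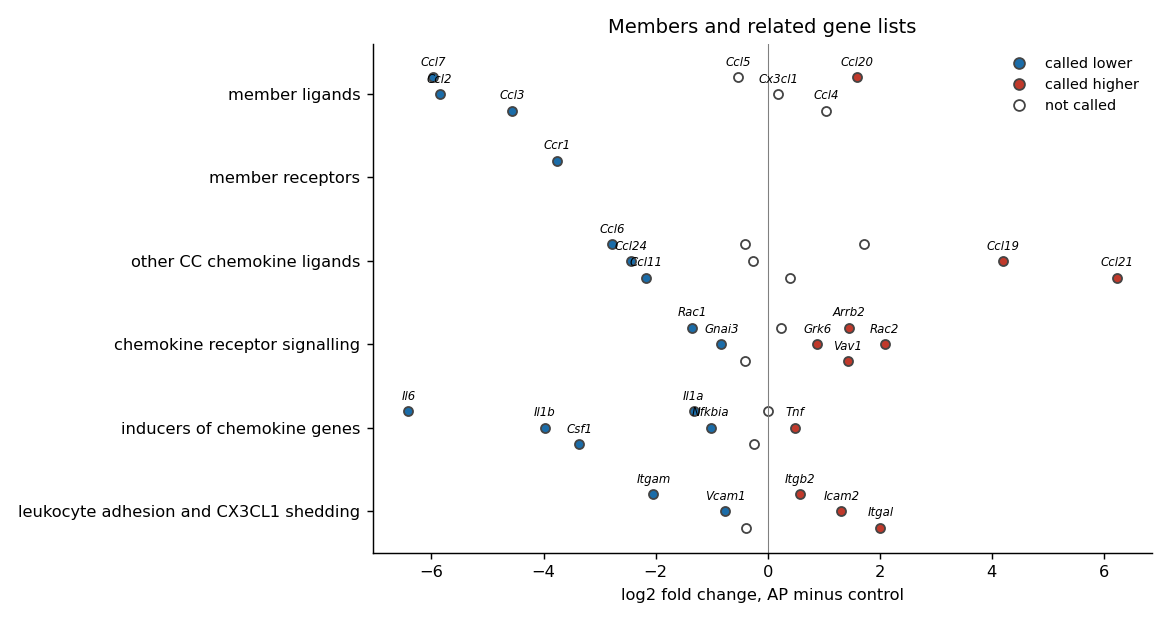
Log2 fold change (AP minus control) of the tested genes in each list shown; filled points passed an adjusted p of 0.05, blue for lower and red for higher, and open points did not. Il6, Ccl7 and Ccl2 lie farthest to the left and Ccl21 farthest to the right.

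The genes whose values over the 4 arrays, centred on their own mean, lay closest to those of Ccl2 were Arg1, Timp1, Msln, C3h11orf96 and Emp1, with a root mean square difference of 0.06 to 0.13 in log2 over 8667 genes. Arg1 encodes arginase 1, Timp1 an inhibitor of metalloproteinases and Msln mesothelin. Arg1 and Msln were at background on all AP scans. Among the 5 genes closest to Ccl20 were Or2ak5, Ddah1, Cdc6 and Or51e1 (0.08 to 0.09). With 2 arrays per group this likeness is mostly that of the fold change.

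Markers of several cell types differed between the groups beside these changes. Of 20 monocyte and macrophage markers 15 could be tested; 4 were lower (Cd14, Itgam and Mrc1 among them), 5 were higher (Csf1r, Marco, Plac8, Spi1 and Fcgr3a) and 6 did not pass, among them the complement genes C1qa, C1qb and C1qc. The summed signal of 16 of them, in units of the 75th percentile, was 93.4 to 94.5 on control arrays and 165 to 171 on AP arrays. Plac8 and Spi1, its brightest genes, carried this difference, with 49.96 to 50.8 and 124 to 129; the other 14 genes summed to 43.4 to 43.6 and 41.3 to 42.5. Lyz2 and Cd68 were left out of the sum because arrays lacked a value. Lyz2 was at 173 on 1 control array and 78.0 on 1 AP array, and Cd68 at 7.40 and 12.5 on the control arrays and 20.8 on 1 AP array. Itgam, Cd163, Cybb and Clec4a1 were at background on all AP scans. Cd163 and Marco were at background on all control scans, and Cybb and Clec4a1 were above it on only 1 of them. Of 12 neutrophil markers 6 could be tested, 5 were lower and none higher, and the sum went from 17.8 to 19.2 down to 0.915 to 1.90. S100a8, Csf3r, Camp and Retnlg were at background on AP arrays only, and so entered the test through the control scans alone. Mmp8, Ngp and Fpr1 were at background on all scans of both groups. The T and NK cell sum was 12.1 to 13.7 on control arrays and 54.5 to 64.9 on AP arrays (8 of 9 tested markers higher), and that of B and plasma cells 0.558 to 0.587 and 4.19 to 4.34 (4 of 5 higher). Dendritic cell markers went the same way, from 2.31 to 2.34 up to 8.27 to 9.25 (3 of 4 higher).

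Sums of other tissue markers, except the acinar ones, were lower on the AP arrays. Adipocyte markers summed to 447 to 450 on control and 16.3 on AP arrays (6 of 8 lower). Erythroid markers summed to 631 to 729 and 30.0 to 31.0 (4 of 5 lower, and Hemgn higher). Hbb made up most of the erythroid sum, with a mean log2 of 9.38 on control and 4.75 on AP arrays. Alas2, the next brightest on control arrays, was at 2.94 there. Fibroblast and stellate cell markers summed to 155 to 173 and 39.0 to 47.0 (7 of 9 lower). Dcn and Sparc were counted among these 9 but left out of the sum, since each had a value on only 1 control array. Sparc was at 7.23 (log2) on that array and at a mean of 3.12 on AP arrays, and Dcn at 4.06 and 0.70. Endothelial markers summed to 10.8 and 2.91 to 3.17 (3 of 3 lower) and mesothelial markers to 9.72 to 10.5 and 2.75 to 2.77 (3 of 3 lower). Duct cell markers were at 18.1 to 19.0 and 7.42 to 7.52 (2 of 4 lower) and islet markers at 8.47 to 10.2 and 3.66 to 4.43 (2 of 4 lower). The acinar markers of the labelled tissue were measured in both groups, at 64.4 to 64.9 and 74.9 to 86.3 (8 of 12 higher), with Ptf1a at background in both. The part of any of these cell types in the changes of the chemokine genes was not tested.

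**Figure D5:**
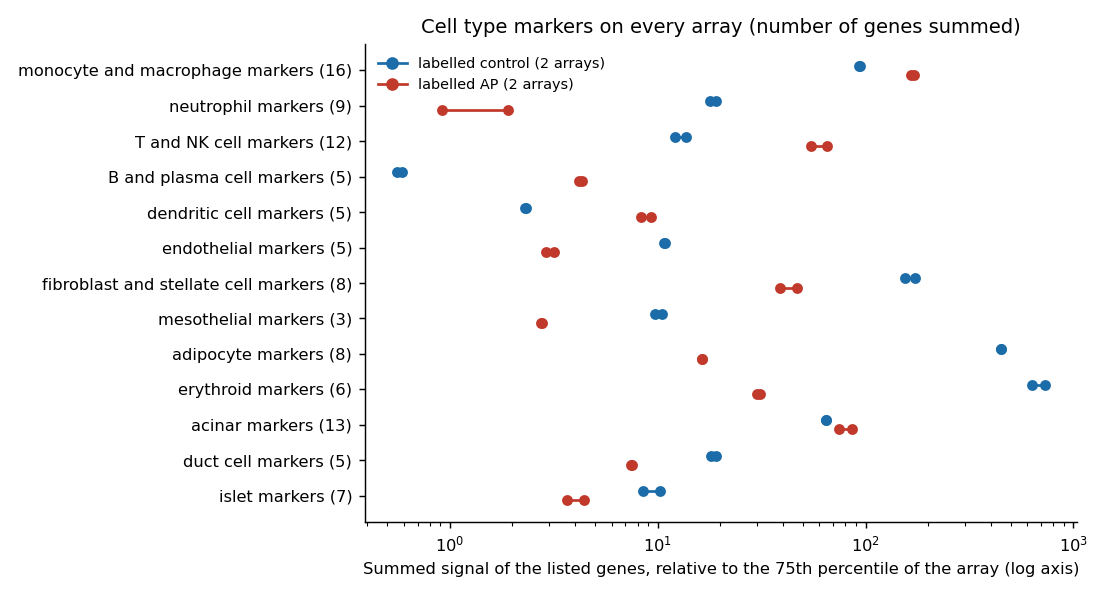
Summed signal of the markers of each cell type (horizontal log axis, in units of the 75th percentile of the array) on the 2 control arrays (blue) and the 2 AP arrays (red); numbers in brackets are genes summed, those with a value on every array. Adipocyte and erythroid sums lie far to the right on control arrays, T and B cell sums on AP arrays.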

How the data were processed

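Per the labels, ribosomal RNA was removed from total RNA, which was labelled with Cy3 from random primers. Per the submitters' processing notes and the file headers, arrays were read with Agilent Feature Extraction 11.0.1.1; the deposited scanner files give background-subtracted, detrended intensity with no scaling between arrays. The deposited normalized table is in log2 (column medians 4.27, r of at least 0.99 with each scan's own log2 signal), so scale and direction follow from the scanner values. Probes were named through RefSeq accessions (14286 of 24684).

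Spots with an outlier mark were left out, log2 intensities of a probe were averaged, and the array's 75th percentile was subtracted. Scans 2 and 3 of a group shared slide and slot, and their spot deviations correlated with r of 0.991 to 0.993 over 1451 spots, against at most 0.746 in other pairs; they were averaged. A filter kept probes above background (Agilent's well-above mark) in 3 or more of 6 scans for limma 3.58.1 (R 4.3.3), with Benjamini-Hochberg adjustment over 13220 probes and 2 residual degrees of freedom. All arrays were on 1 slide. The procedure was tested on simulated data. The number of arrays limits the precision, and p-values measure only the spread between these arrays. The genes and lists were chosen with earlier results of these data known. Genes named are all members, all called genes of a list where at most 5 were called in a direction, and the 5 genes closest to Ccl2 and to Ccl20; a few genes that this rule names are not reported here. Neighbours in the annotation and cell type markers were added by name after their values were seen. Genes with more than 1 probe were read from the brightest. Other settings tried numbered 21; normexp used the median spot signal, since the files hold no mean.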

Additional observations from a re-analysis of the deposited data

How the results depend on the processing

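Ccl2, Ccl7, Ccl3 and Ccr1 were called lower under all 21 other settings, with ranges of -6.81 to -5.23, -6.92 to -4.81, -5.51 to -3.49 and -4.72 to -2.67; the count of lower members was 4 to 6. The count of higher members, 1 as reported, was 0 without scaling, under normexp with the 75th percentile and with probes above background on all scans, where Ccl20 was not tested. It was 2 with median scaling, when each of the 6 scans counted as a replicate, and when the session was also blocked, Ccl4 being the second, and 0 to 2 with an array left out. Over all probes, 3725 lower and 3557 higher became 7796 and 768 without scaling, 1637 and 843 under normexp with the 75th percentile, 2820 and 2158 with median scaling, and 3362 and 6800 with no filter on dim probes. With an array left out they were 2520 to 3100 and 2121 to 2740; an array left alone was assumed to vary like the other group. Without scaling the sign turned for Cx3cl1 (-0.77), Tnf (-0.47), Grk6 (-0.0730), Itgb2 (-0.38) and Ccr1l1 (-0.32), by the size of the shift removed. Under normexp with the 75th percentile it turned for Ccl24 (0.0474), Ccl11 (0.0937), Itgam (0.10), Il1a (0.0436) and Ccl9 (0.31), all at background on AP arrays; the cause was not tested. Same-numbered arrays deviated from their group means with r = -0.21 over 13149 probes. With 2 arrays per group the deviations mirror each other, so this r cannot exclude a pairing. With the replicate block 2936 probes were lower and 2580 higher, and no member changed its call. The crossed replicate block, chosen after seeing the data, gave 3615 and 3677, and 5 lower members. The alternative of averaging a gene's probes was not run, since each member has 1 probe. Signal near background limits Ccl20 and Ccr2.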

Other observations

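The receptor genes next to Ccr1 in RefSeq's annotation did not share its fall. In the order Cxcr6, Xcr1, Ccr1, Ccr3, Ccr1l1, Ccr2, the first gene, a receptor of T cells, was 1.29 higher in log2 on AP arrays (limma adjusted p = 0.0026) and 0.33 (0.0591) without scaling. Ccr1l1, a relative of Ccr1, was 0.63 higher (adjusted p = 0.0276), with -0.32 (0.0890) without scaling and no call with either control array or the second AP array left out (0.103, 0.116 and 0.0707) or with the replicate block (0.0644). Xcr1, Ccr3 and Ccr2 were too dim to be tested. These genes were chosen for their place and named after their values were seen.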
